A study of Mus musculus with 13 samples.

Results

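The SLAM family receptors are immunoglobulin-type surface proteins of blood cells, and 7 of their genes were followed here through bone marrow-derived macrophages (BMDMs) that carried or lacked Acly, the enzyme that makes cytosolic acetyl-CoA from citrate. The 7 members were Slamf1, Slamf7, Slamf8, Slamf9, Cd48, Cd84 and Ly9, out of 24445 gene symbols in the count table, and each was represented by its RefSeq transcript row with the highest total count. All 7 passed the filter on low counts. Slamf1 was chosen from its genotype contrasts in these same libraries, so its values are given as a description with no test, and the other 6 members were taken because they belong to its family. 3 further family genes, Slamf6, Cd244a and Cd2, are described beside them.

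BMDMs were grown for 7 days from bone marrow of female mice on a C57Bl/6J background, with L929-conditioned medium, and were then exposed to LPS, the cell wall component of Gram-negative bacteria that activates macrophages through Tlr4, at 100 ng/mL. Control cells came from Acly fl/fl mice, in which loxP sites flank exon 9 of Acly, and AclyM-KO cells came from mice with the same floxed alleles and a Cre driven by Lyz2, a gene of the myeloid lineage, so deletion depended on Lyz2 activity. The age of the donor mice was not given in the sources used here. The 4 groups were control at 3 h (3 libraries), AclyM-KO at 3 h (3 libraries), control at 24 h (4 libraries) and AclyM-KO at 24 h (3 libraries), and every group had received LPS, so no level without LPS was part of these comparisons. The labels do not say whether libraries of a group came from separate mice, so p-values measure the spread between these libraries, which may be technical.

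Control 24 h replicate 1 held 34467 counts, while the other 12 libraries held 21274102 to 59577343, and 1 count in it was worth 22.4 CPM (counts scaled to the size of each library). It had 0 counts of Slamf1 and Slamf9, 4 of Slamf8 and of Cd84, 5 of Cd48, 11 of Ly9 and 31 of Slamf7, so it was left out of the reported fit, and results that change with it are named. Acly itself was lower in every AclyM-KO library of the fit than in every control library, at 41.8 ± 4.25 against 106 ± 1.20 CPM at 3 h and 29.9 ± 0.758 against 109.8 ± 2.78 CPM at 24 h (SD, n = 3). Macrophage markers summed to 3619 to 4931 CPM in every library, although Cx3cr1 had 0 to 5 counts, and the T cell receptor genes Cd3e, Cd3d and Cd3g had 0 to 3. Fewer cells of a type and less RNA per cell cannot be told apart in these bulk samples.

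In general, SLAM receptors are built from a pair or more of immunoglobulin domains and most of them bind a copy of themselves on a neighbouring cell. Cd48 differs in being held by a glycolipid anchor and serves as the ligand of Cd244a and, in rodents, of Cd2. Slamf1, Ly9, Cd84, Slamf6, Slamf7 and Cd244a carry tyrosine motifs in their tails that recruit the small SH2 adaptors SAP (Sh2d1a) and EAT-2 (Sh2d1b1) or SH2-containing phosphatases, whereas Slamf8 and Slamf9 have short tails without such motifs. In macrophages Slamf1 is known as a sensor of Gram-negative bacteria that enters the phagosome and promotes its oxidase, Slamf8 is known to restrain that oxidase, and Slamf7 is known to promote engulfment of blood cancer cells together with the integrin Mac-1.

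All 7 genes lie on chromosome 1 of the mouse (GRCm38 positions, GENCODE annotation). Cd244a, Ly9, Slamf7, Cd48, Slamf1, Cd84 and Slamf6 form a run of 7 genes over 394 kb. Within it Ly9 occupies chr1:171588624-171607410 on the minus strand, Slamf7 chr1:171632403-171653035 on the minus strand, Cd48 chr1:171682009-171705258, Slamf1 chr1:171767127-171801184 and Cd84 chr1:171839697-171890718 on the plus strand. Slamf9, at chr1:172475358-172478575 on the plus strand, starts 522 kb further on, and Slamf8, at chr1:172581758-172590568 on the minus strand, lies another 103 kb away. Ly9 lies wholly inside the span of Cd244a on the opposite strand, and the strand setting of the counting was not given in the sources used here, so reads of this pair may not be fully separated.

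The regions around the transcription start are shown for 4 members whose levels moved in different ways between 3 h and 24 h: Slamf1, which differed between genotypes, Slamf8 and Slamf9, which rose with time, and Cd48, which fell. The sequences are RefSeq promoter windows on GRCm38.p6, 250 bases before to 50 after the start, written 5′ to 3′ on the strand of the gene, and capitals mark letters that match 1 of 5 motifs searched on both strands: GGG and TTTCC with any pair of bases between them (NF-kB), TGANTCA (AP-1), GAAA and GAAA with any pair of bases between them (interferon response element), TTGCNNAA (C/EBP) and GAGGAAG (PU.1).
Slamf1, chr1:171766882-171767181, plus strand: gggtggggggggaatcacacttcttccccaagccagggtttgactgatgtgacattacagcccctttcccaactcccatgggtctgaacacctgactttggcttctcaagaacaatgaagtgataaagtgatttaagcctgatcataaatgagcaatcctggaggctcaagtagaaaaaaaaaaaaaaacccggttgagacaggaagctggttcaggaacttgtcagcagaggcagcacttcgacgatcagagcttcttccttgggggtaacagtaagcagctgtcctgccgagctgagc
Slamf8, chr1:172590519-172590818, minus strand: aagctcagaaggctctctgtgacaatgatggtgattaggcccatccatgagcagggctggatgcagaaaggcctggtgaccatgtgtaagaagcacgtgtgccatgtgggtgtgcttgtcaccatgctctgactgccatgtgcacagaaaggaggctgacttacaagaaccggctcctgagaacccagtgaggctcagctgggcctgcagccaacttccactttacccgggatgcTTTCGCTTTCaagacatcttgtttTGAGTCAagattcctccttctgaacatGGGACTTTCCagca
Slamf9, chr1:172475110-172475409, plus strand: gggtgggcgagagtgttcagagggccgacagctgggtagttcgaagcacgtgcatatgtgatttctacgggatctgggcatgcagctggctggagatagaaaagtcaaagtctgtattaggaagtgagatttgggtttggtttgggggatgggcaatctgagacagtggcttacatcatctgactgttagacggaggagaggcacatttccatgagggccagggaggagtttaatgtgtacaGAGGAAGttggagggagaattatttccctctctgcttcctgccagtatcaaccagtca
Cd48, chr1:171681742-171682041, plus strand: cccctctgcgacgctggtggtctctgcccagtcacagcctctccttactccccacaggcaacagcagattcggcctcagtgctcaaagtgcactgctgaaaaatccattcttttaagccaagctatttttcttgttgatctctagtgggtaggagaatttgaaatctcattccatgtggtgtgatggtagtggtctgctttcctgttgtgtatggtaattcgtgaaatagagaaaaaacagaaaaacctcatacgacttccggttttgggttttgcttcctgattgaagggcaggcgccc

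The Slamf8 window held 3 matches, which did not overlap: an interferon response element read on the opposite strand from position -15, an AP-1 match from position +10 and an NF-kB match, GGGACTTTCC, from position +37, where +1 is the first transcribed base. The Slamf9 window held 1 PU.1 match from position -8. Slamf7 and Cd84 held 1 AP-1 match each, from positions -42 and -229, and the Slamf1 and Cd48 windows held no match. Among 32851 promoter windows of the same length, 1.63% held the NF-kB letters, 7.81% the AP-1 letters, 3.44% the interferon response letters, 10.8% the C/EBP letters and 13.6% the PU.1 letters. A match describes the letters and does not show that a factor was bound. No window of Ly9 was used here.

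Slamf7 was the most abundant member in all 4 groups and Slamf1 the least abundant, by CPM divided by the exon length of the matched transcript in kb. In control cells at 3 h, Slamf7 stood at 241 ± 8.76 CPM per kb, followed by Ly9 at 104 ± 2.34, Cd48 at 82.7 ± 1.8, Cd84 at 67.1 ± 2.65, Slamf8 at 26.3 ± 1.39, Slamf9 at 5.44 ± 0.552 and Slamf1 at 4.40 ± 0.103 (SD, n = 3). No neighbours in this order overlapped, and the order was the same in AclyM-KO cells at 3 h. At 24 h in control cells the order was Slamf7 at 293 ± 2.11 CPM per kb, Ly9 at 197 ± 3.42, Cd84 at 77.8 ± 5.30, Cd48 at 56.3 ± 1.15, Slamf8 at 51.9 ± 1.63, Slamf9 at 40.6 ± 1.90 and Slamf1 at 9.48 ± 1.13. In AclyM-KO cells at 24 h Slamf8 and Cd48 overlapped, at 55.3 ± 2.10 and 54.7 ± 2.64 CPM per kb, and no other neighbours did. The place of Cd84 depends on its length: 2 of its rows held identical counts but matched transcripts of 3291 and 1503 exonic bases, and with the shorter one Cd84 stood at 147 ± 5.81 CPM per kb in control cells at 3 h, above Ly9.

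**Figure D1:**
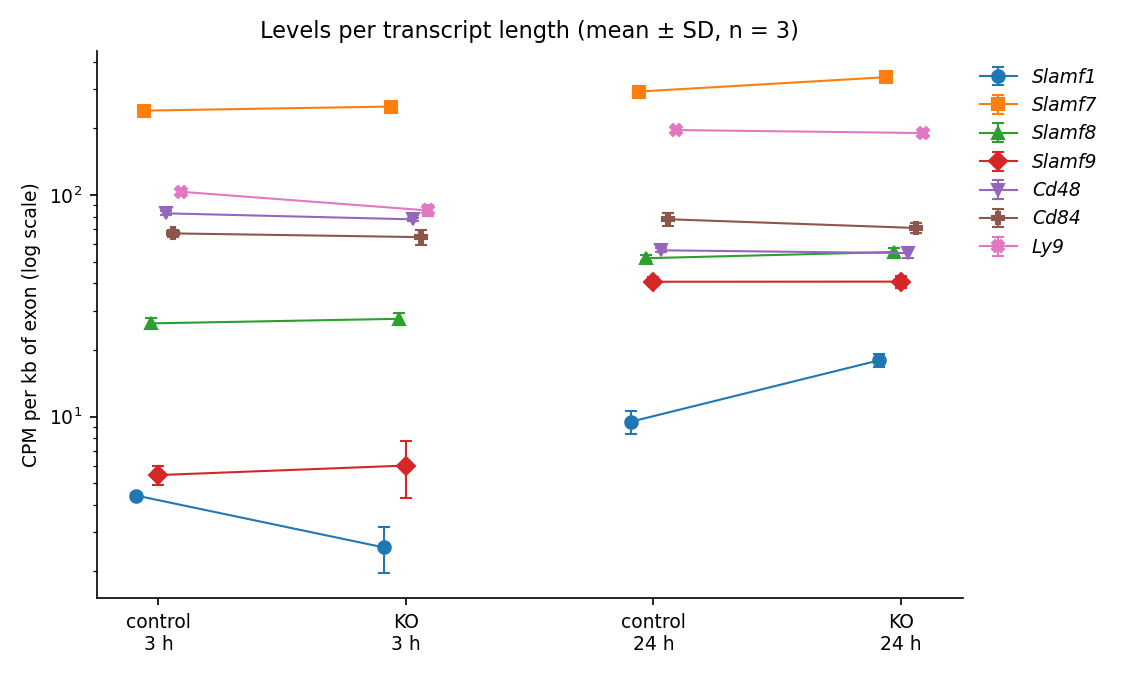
Level of each member in CPM per kb of exon on a log axis for the 4 groups, as the mean ± SD of 3 libraries, with lines joining the genotypes of 1 time. Slamf7 lies highest and Slamf1 lowest in every group, Slamf9 climbs from 5.44 to 40.6 CPM per kb in control cells, and Cd48 is the only member whose points lie lower at 24 h in both genotypes.

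The 7 members together summed to 530 ± 14.5 CPM per kb in control and 515 ± 13.5 in AclyM-KO cells at 3 h, and to 726 ± 9.98 and 771 ± 14.3 at 24 h (SD, n = 3). Slamf7 made up 45.4 ± 0.860% of this sum in control cells at 3 h and 40.4 ± 0.276% at 24 h. The share of Slamf9 went from 1.03 ± 0.0893% to 5.59 ± 0.265% over the same interval in control cells, and that of Cd48 from 15.6 ± 0.201% to 7.76 ± 0.0678%. The share of Slamf1 was 0.830 ± 0.0260% in control and 0.501 ± 0.129% in AclyM-KO cells at 3 h, and 1.31 ± 0.141% and 2.33 ± 0.138% at 24 h. These sums and shares used the longest matched lengths of Cd84 and Ly9, 3291 and 2488 bases. With their shortest matched lengths, 1503 and 2098 bases, the sums would be larger and the shares given here smaller.

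**Figure D2:**
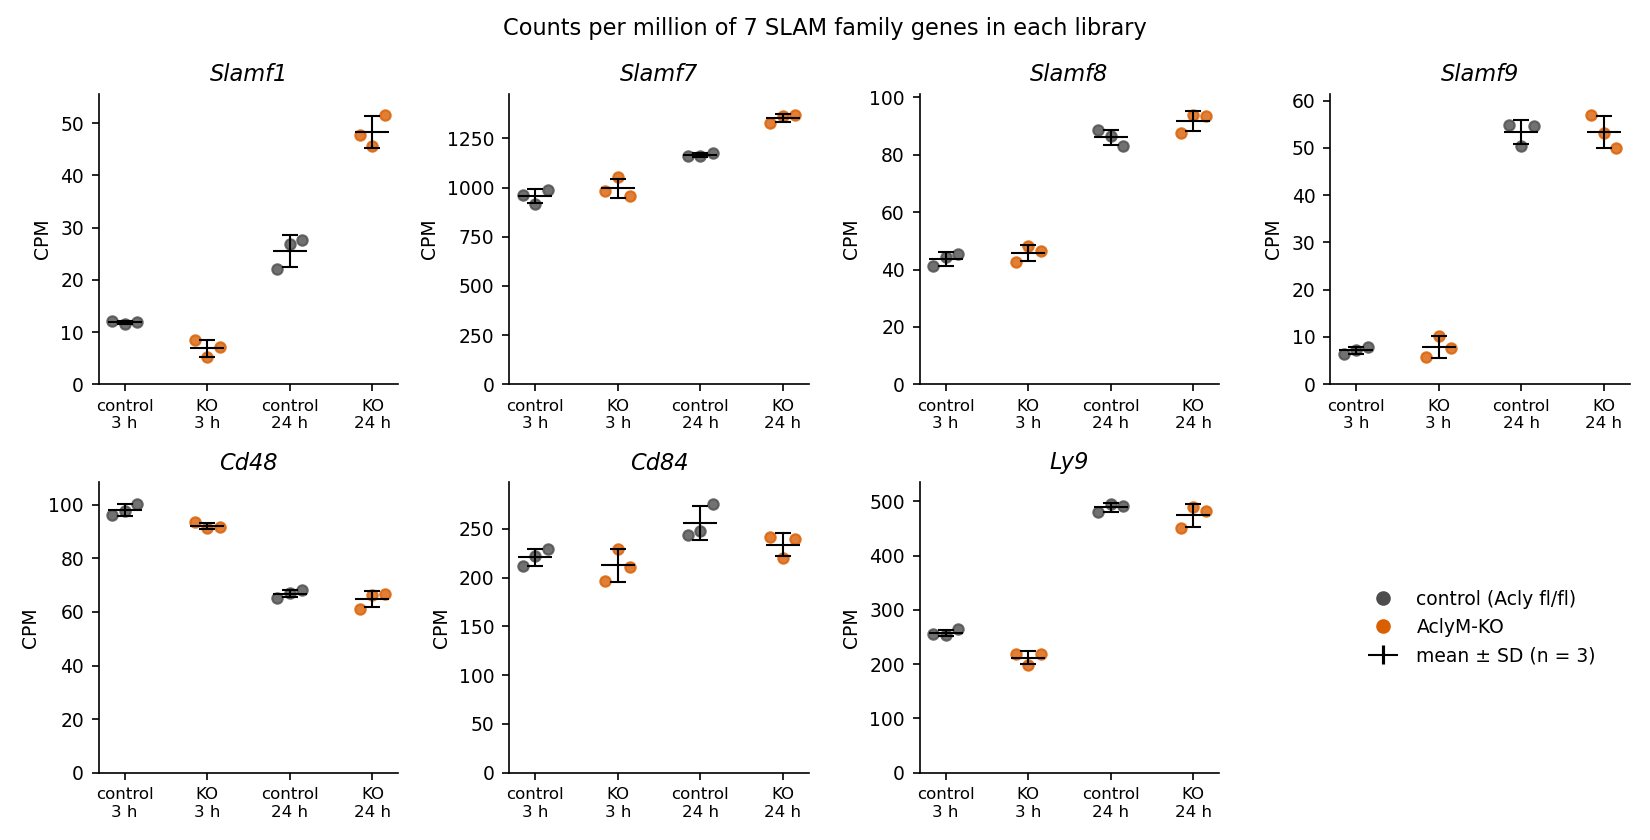
CPM of each of the 7 members in the 12 libraries of the fit (points), with the mean ± SD of the 3 libraries of a group, on linear axes that start at 0. Slamf1 is lower in AclyM-KO cells at 3 h (5.20 to 8.45 against 11.6 to 12.1 CPM) and higher at 24 h (45.6 to 51.6 against 22.1 to 27.7 CPM), while Slamf8 and Slamf9 separate by time and not by genotype.

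The effect of Acly deletion was compared at each time. Slamf1, a self-binding receptor of phagocytes and lymphocytes, had 12.1, 11.6 and 11.9 CPM in control cells at 3 h and 8.45, 5.20 and 7.07 CPM in AclyM-KO cells. All 3 AclyM-KO libraries lay below all 3 control libraries, and the log2 difference was -0.79 with an SE of 0.13. At 24 h Slamf1 had 22.1, 26.9 and 27.7 CPM in control cells and 47.7, 45.6 and 51.6 CPM in AclyM-KO cells. The order of the genotypes was the opposite of that at 3 h, again without overlap, and the log2 difference was 0.91 with an SE of 0.09. Between the times, Slamf1 was 1.12 higher on the log2 scale at 24 h in control cells (SE 0.11) and 2.82 higher in AclyM-KO cells (SE 0.12), so that the genotype difference moved by 1.70 from 3 h to 24 h (SE 0.16). These values are those for which Slamf1 was chosen. The raw counts behind them were 119 to 247 per library at 3 h and 538 to 1813 at 24 h.

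None of the other 6 members was called between the genotypes at either time, where a call needs a log2 fold change beyond 0.75 and an adjusted p under 0.05 (edgeR's quasi-likelihood test, Benjamini-Hochberg adjustment over 19621 transcripts). Over 11904 genes tested, 2.01% were called at 3 h and 1.38% at 24 h. At an unadjusted p under 0.05, edgeR had 1 of the 6 at 3 h (Ly9) and 2 at 24 h (Slamf7 and Cd84), and DESeq2 called 0 at both times. The share of all genes at an unadjusted p was not counted. Such counts, here and for the lists below, therefore have no share beside them. By adjusted p alone, 1 of the 6 passed at each time, against 15.4% of all genes at 3 h and 13.9% at 24 h. Libraries of the genotypes did not overlap for 2 of the 6 at 3 h (Cd48 and Ly9), against 30.1% of genes, and for 2 at 24 h (Slamf7 and Cd84), against 33.1%.

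Ly9, a self-binding receptor with a long extracellular part, was the member that passed by adjusted p at 3 h. It had 255, 254 and 264 CPM in control cells and 218, 198 and 219 CPM in AclyM-KO cells. The AclyM-KO libraries all lay lower, by a log2 difference of -0.28 (SE 0.05, edgeR adjusted p = 0.00018), which is smaller than the fold set for a call. At 24 h it had 480, 496 and 492 CPM in control and 450, 490 and 482 CPM in AclyM-KO cells. These libraries overlapped, and the log2 difference of -0.05 did not pass (95% interval -0.16 to 0.07, edgeR adjusted p = 0.60). The partner on the opposite strand, Cd244a, had 4.67, 4.49 and 4.64 CPM in control cells and 3.84, 3.94 and 3.03 CPM in AclyM-KO cells at 3 h, a log2 difference of -0.35 that did not pass (SE 0.16, edgeR adjusted p = 0.16).

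Slamf7 was the member that passed by adjusted p at 24 h. It had 1159, 1162 and 1175 CPM in control cells and 1329, 1364 and 1369 CPM in AclyM-KO cells. All AclyM-KO libraries lay higher, by a log2 difference of 0.22 (SE 0.05, edgeR adjusted p = 0.0012), and with control 24 h replicate 1 included the difference was 0.25 (SE 0.07, edgeR adjusted p = 0.026). At 3 h Slamf7 had 963, 918 and 987 CPM in control and 981, 1053 and 959 CPM in AclyM-KO cells. The genotypes overlapped there, with a log2 difference of 0.06 (95% interval -0.04 to 0.17, edgeR adjusted p = 0.41).

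Cd84, a self-binding receptor of myeloid cells, platelets and lymphocytes, had 244, 248 and 276 CPM in control and 242, 220 and 239 CPM in AclyM-KO cells at 24 h. The AclyM-KO libraries lay just below the control libraries, and the log2 difference of -0.13 did not pass (95% interval -0.27 to 0.0014, edgeR adjusted p = 0.13, with a range of 0.033 to 0.69 over 19 other settings, of which 4 lay under 0.05). At 3 h it had 212, 222 and 229 CPM in control and 197, 230 and 211 CPM in AclyM-KO cells, which overlapped. Cd48, the anchored ligand, had 96.3, 97.5 and 100.4 CPM in control and 93.4, 91.3 and 91.6 CPM in AclyM-KO cells at 3 h, a log2 difference of -0.09 (95% interval -0.21 to 0.03, edgeR adjusted p = 0.28). The libraries did not overlap, yet the difference was within the error of the fit.

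For the short-tailed members the interval of the genotype difference was narrower for Slamf8 than for Slamf9. Slamf8 differed by 0.07 at 3 h (95% interval -0.07 to 0.21) and by 0.09 at 24 h (-0.04 to 0.22) on the log2 scale. Slamf9 differed by 0.16 at 3 h (95% interval -0.20 to 0.51) and by less than 0.01 at 24 h (-0.23 to 0.23). Neither passed at either time (edgeR adjusted p = 0.30 to 0.999), and these intervals do not show that the genotypes were alike. The spread of Slamf9 at 3 h came mostly from AclyM-KO cells, at 5.74, 10.2 and 7.69 CPM, and without AclyM-KO 3 h replicate 1 the difference was 0.34 (edgeR adjusted p = 0.047), while without AclyM-KO 3 h replicate 2 it was -0.081 (edgeR adjusted p = 0.75).

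**Figure D3:**
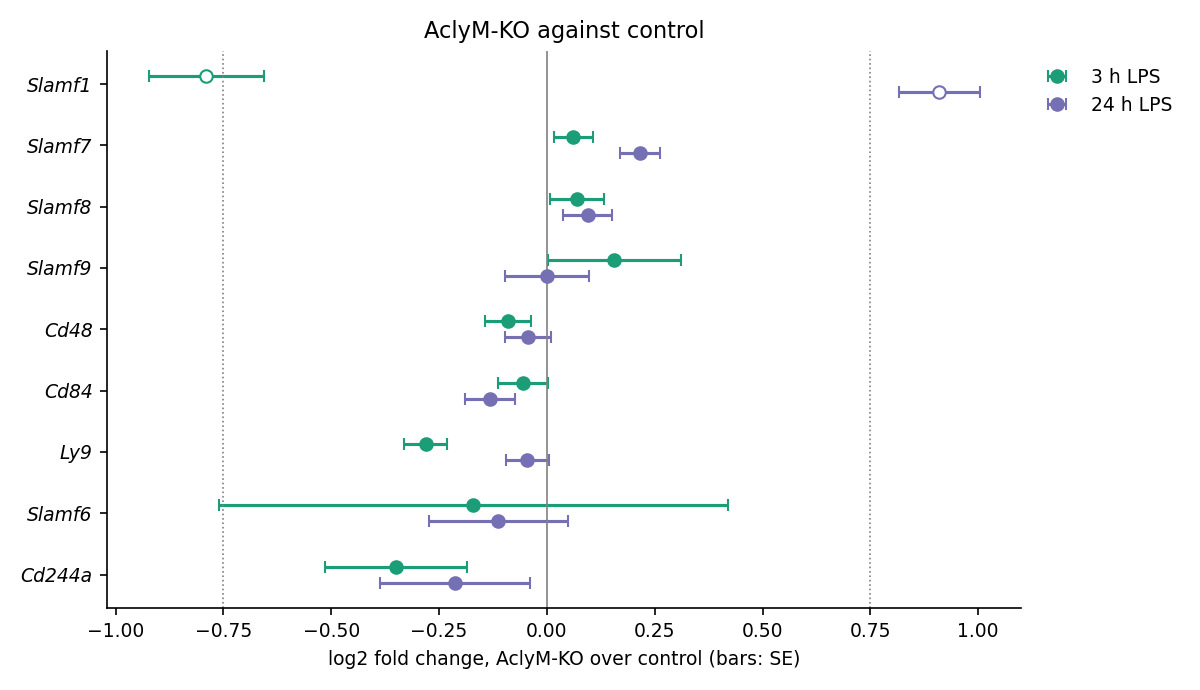
Log2 fold change of AclyM-KO over control for the 7 members, Slamf6 and Cd244a at 3 h and at 24 h of LPS, with SE bars from the edgeR fit; dotted lines mark 0.75 in either direction and open points mark Slamf1, which was chosen for this difference. Slamf1 lies at -0.79 and 0.91, while every other member lies between -0.28 (Ly9, 3 h) and 0.22 (Slamf7, 24 h).

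The genotype effect was then compared between the times. Of the 6 members, 1 was called by adjusted p, Ly9, against 9.53% of all genes, and its genotype difference was 0.24 higher at 24 h than at 3 h (SE 0.07, edgeR adjusted p = 0.029). The call was lost in 7 of 12 fits that each left out 1 library, while the difference stayed between 0.17 and 0.27 over the 12, and with control 24 h replicate 1 included (difference 0.25, SE 0.10, edgeR adjusted p = 0.10). For the other 5 the change of the genotype difference was between -0.16 (Slamf9) and 0.15 (Slamf7), with edgeR adjusted p from 0.13 to 0.90.

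The passage from 3 h to 24 h of LPS moved the members in both directions. By adjusted p all 6 passed in each genotype in the reported fit, against 74.9% of genes in control and 75.7% in AclyM-KO cells. Cd84 in AclyM-KO cells passed in only 10 of 19 other settings. With the fold threshold, 3 of the 6 were called in control cells, where 40.4% of all genes were, and 3 in AclyM-KO cells, where 41.9% were. All of these calls were increases, of Slamf8, Slamf9 and Ly9 in both genotypes, and 20.9% and 21.9% of genes were called higher. Libraries of the times did not overlap for all 6 in control cells, against 77.5% of genes, and for 5 in AclyM-KO cells, against 76.8%. The median log2 fold change over the 6 was 0.61 in control and 0.72 in AclyM-KO cells, beside 0.04 and 0.04 over all genes tested. The time contrasts of the genotypes share no library.

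Slamf9, a short-tailed receptor of macrophages and dendritic cells, rose the most among the 7 in control cells. It had 6.35, 7.30 and 7.78 CPM at 3 h and 54.8, 50.4 and 54.7 CPM at 24 h in control cells, and 5.74, 10.2 and 7.69 CPM at 3 h and 57.0, 53.1 and 50.1 CPM at 24 h in AclyM-KO cells. The 3 h and 24 h libraries were far apart in both genotypes. The log2 increase was 2.90 in control (SE 0.13, edgeR adjusted p = 2.7e-13), or 7.47-fold, and 2.74 in AclyM-KO cells (SE 0.12, edgeR adjusted p = 4.9e-13), or 6.70-fold. Among the 11904 genes tested, 194 had a larger increase in control cells.

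Slamf8, the other short-tailed member, went from 41.1, 44.5 and 45.5 CPM at 3 h to 88.5, 86.5 and 83.1 CPM at 24 h in control cells, and from 42.7, 48.3 and 46.4 to 87.7, 93.9 and 93.7 CPM in AclyM-KO cells. Its level about doubled, with a log2 increase of 0.98 in control (SE 0.06, edgeR adjusted p = 2.0e-15) and 1.00 in AclyM-KO cells (SE 0.06, edgeR adjusted p = 1.1e-15). Ly9 rose by 0.93 on the log2 scale in control (SE 0.05, edgeR adjusted p = 8.2e-17) and by 1.16 in AclyM-KO cells (SE 0.05, edgeR adjusted p = 3.1e-19), from the library values given above. In AclyM-KO cells it started lower, at 212 ± 11.7 against 258 ± 5.82 CPM, and ended at overlapping levels.

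Cd48 was the only one of the 7 that fell. Its levels of 96.3 to 100.4 CPM in control cells at 3 h were followed by 65.3, 67.1 and 68.0 CPM at 24 h, and those of 91.3 to 93.4 CPM in AclyM-KO cells by 61.2, 66.4 and 66.9 CPM. The log2 fold change was -0.55 in control (SE 0.05, edgeR adjusted p = 6.4e-11) and -0.51 in AclyM-KO cells (SE 0.05, edgeR adjusted p = 5.2e-10), under the fold set for a call. Slamf7 rose by 0.29 (SE 0.05, edgeR adjusted p = 1.8e-06) and 0.44 (SE 0.05, edgeR adjusted p = 4.7e-10) on the log2 scale in the same order of genotypes, and no 3 h library reached a 24 h library. Cd84 rose by 0.21 in control cells (SE 0.06, edgeR adjusted p = 0.0016), which was lost with the replicate number as a block (0.14, SE 0.06, edgeR adjusted p = 0.059), and its value of 0.14 in AclyM-KO cells passed narrowly (SE 0.06, edgeR adjusted p = 0.035). In the latter the libraries overlapped, and the increase no longer passed by adjusted p with control 24 h replicate 1 in the fit (SE 0.07, edgeR adjusted p = 0.087). Over 19 other settings the adjusted p of that increase ranged from 0.0041 to 0.21, and it passed in 10 of the 19. Among the fits in which it did not pass were those without AclyM-KO 3 h replicate 1 or 3. The fits without AclyM-KO 24 h replicate 1 or 3 also lost it.

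**Figure D4:**
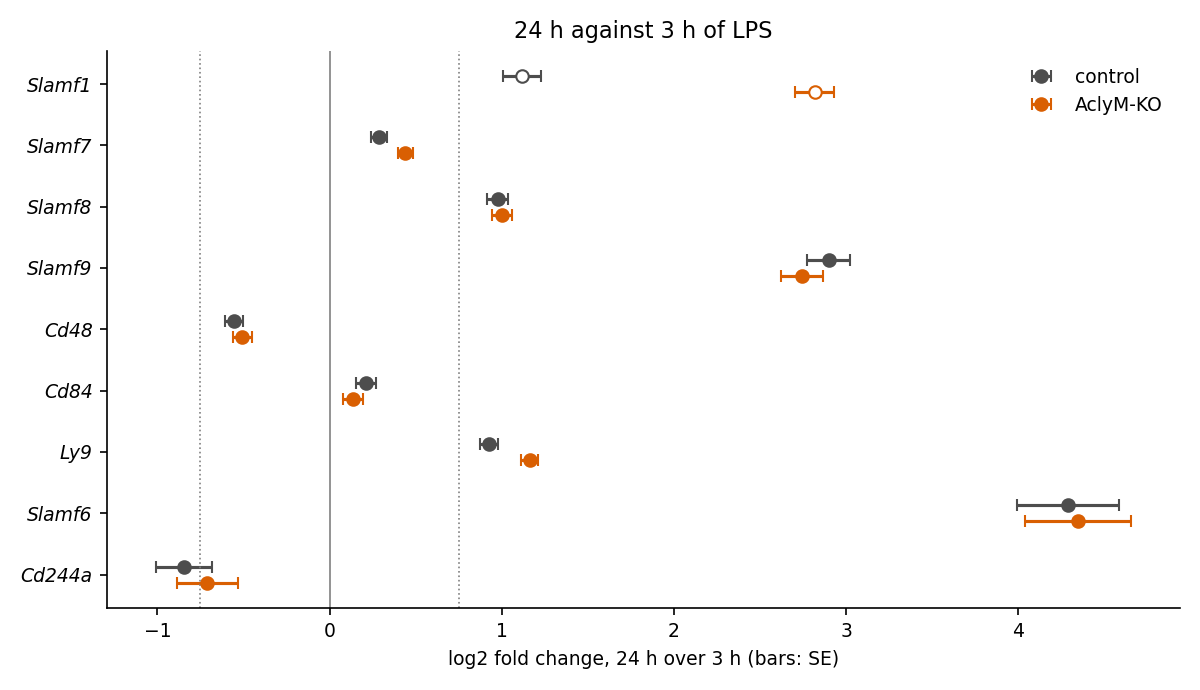
Log2 fold change of 24 h over 3 h of LPS in control and AclyM-KO cells for the 7 members, Slamf6 and Cd244a, with SE bars from the edgeR fit; dotted lines mark 0.75 in either direction and open points mark Slamf1. Slamf6 and Slamf9 lie farthest to the right in both genotypes apart from Slamf1 in AclyM-KO cells at 2.82, and Cd48 and Cd244a lie left of 0.

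Family genes outside the 7 also moved with time. Slamf6, a self-binding receptor best known from T and NK cells, had 2 to 5 counts per library at 3 h and 73 to 237 at 24 h. This corresponds to 0.248, 0.140 and 0.150 CPM in control cells at 3 h and 3.81, 3.28 and 3.62 CPM at 24 h, with 0.102, 0.131 and 0.240 followed by 3.53, 2.94 and 3.45 CPM in AclyM-KO cells. The log2 increase was 4.29 in control (SE 0.29, edgeR adjusted p = 3.5e-14) and 4.35 in AclyM-KO cells (SE 0.31, edgeR adjusted p = 8.3e-14), larger than that of any of the 7, from a level near the detection limit. The genotypes overlapped at both times. Cd244a, the receptor for Cd48, fell in control cells from 4.67, 4.49 and 4.64 to 2.5, 2.00 and 2.90 CPM, a log2 fold change of -0.85 (SE 0.16, edgeR adjusted p = 2.5e-05). In AclyM-KO cells its change of -0.71 passed by adjusted p and missed the fold threshold (SE 0.18, edgeR adjusted p = 0.00066). Both Cd48 and its receptor were thus lower at 24 h than at 3 h. Cd2, the other rodent receptor for Cd48, had 5 counts over all 13 libraries and was not tested.

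Along the locus, members that rose lay beside members that fell. Between Cd244a and Slamf6 the order of log2 fold changes in control cells was -0.85 (Cd244a), 0.93 (Ly9), 0.29 (Slamf7), -0.55 (Cd48), 1.12 (Slamf1), 0.21 (Cd84) and 4.29 (Slamf6). Within 500 kb of a member the table held 52 other genes, Slamf6 and Cd244a among them, and 37 were tested. In control cells 6 of the 37 were called higher and 8 lower with time, and in AclyM-KO cells 6 higher and 6 lower, with medians of -0.03 and -0.10 on the log2 scale. Over all genes 40.4% were called with time in control and 41.9% in AclyM-KO cells, and 20.9% and 21.9% were called higher. The largest decreases were those of Adamts4, a secreted protease (log2 fold change -7.88 in control, SE 0.16, edgeR adjusted p = 2.6e-27), and of Pcp4l1 (-4.05, SE 0.17, edgeR adjusted p = 2.5e-12). Between genotypes 0 of the 37 were called at 3 h by edgeR and by DESeq2, with 9 at an unadjusted p under 0.05 and 2 passing by adjusted p alone, and 1 at 24 h, the junction protein gene F11r (log2 fold change 1.09, SE 0.30, edgeR adjusted p = 0.012, at a mean of 2.00 CPM). Over all genes 2.01% were called at 3 h and 1.38% at 24 h, and 15.4% passed by adjusted p alone at 3 h. For genotype by time 2 were called, both lower, Sdhc at -0.29 (SE 0.10, edgeR adjusted p = 0.048) and Dusp23 at -0.62 (SE 0.20, edgeR adjusted p = 0.040), and DESeq2 called 0. For that contrast edgeR called 9.53% of all genes.

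**Figure D5:**
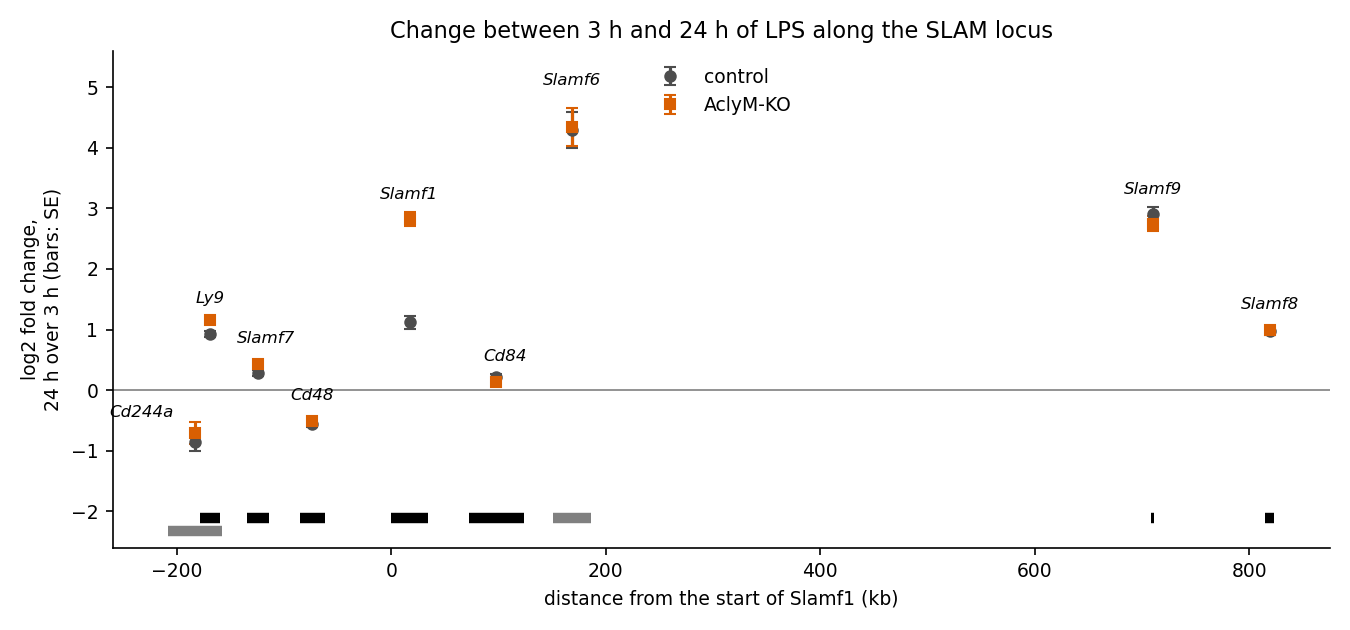
Log2 fold change of 24 h over 3 h, with SE bars from the edgeR fit, against the midpoint of each SLAM family gene in kb from the start of Slamf1, with the gene spans drawn below (black for the 7 members, grey for Cd244a and Slamf6). The genes from Cd244a to Slamf6 lie on both sides of 0, from -0.85 to 4.29 in control cells. The genotypes stand farthest apart at Slamf1 (1.12 and 2.82), which was chosen for its genotype difference.

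The adaptors that SLAM receptors use were scarce. Sh2d1a, the adaptor SAP of lymphocytes, had 0 counts in all 12 libraries, and Sh2d1b2 had 1 count in all. Sh2d1b1, the adaptor EAT-2, had 2, 0 and 0 counts in control and 0, 2 and 1 counts in AclyM-KO libraries at 3 h. At 24 h it had 1.31, 1.02 and 1.21 CPM in control cells, from 24 to 79 counts, and 1.76, 1.69 and 1.61 CPM in AclyM-KO cells, from 42 to 47 counts. It was called higher with time in both genotypes (edgeR adjusted p = 6.0e-09 in control and 4.0e-10 in AclyM-KO cells), and no fold is given because the 3 h groups were at the detection limit. Between genotypes at 24 h the log2 difference of 0.51 did not pass (SE 0.25, edgeR adjusted p = 0.20).

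Kinases and phosphatases that act below the receptors moved in both directions with time. Of 15 listed signalling partners 14 were tested, and 2 were called higher and 3 lower in each genotype, where 40.4% of all genes were called in control and 41.9% in AclyM-KO cells. The Src family kinases Src (log2 fold change -2.56, SE 0.07), Fyn (-1.36, SE 0.09) and Lyn (-0.95, SE 0.05) fell, while the lipid phosphatase Inpp5d (1.39, SE 0.06) and the tyrosine phosphatase Ptpn6 (1.04, SE 0.05) rose. In AclyM-KO cells Src (-2.16, SE 0.06), Fyn (-1.33, SE 0.09) and Lyn (-0.92, SE 0.05) fell, and Inpp5d (1.45, SE 0.06) and the exchange factor Vav1 (0.95, SE 0.06) rose. Ptpn6 in AclyM-KO cells (0.72, SE 0.05, edgeR adjusted p = 3.9e-14) and Vav1 in control cells (0.68, SE 0.06, edgeR adjusted p = 2.7e-12) passed by adjusted p and missed the fold threshold. The list median was -0.05 in both genotypes, beside 0.04 over all genes tested. Between genotypes 1 was called at 3 h, the Src family kinase Fgr, lower in AclyM-KO cells (-1.16, SE 0.20, edgeR adjusted p = 0.00015). At 24 h 0 were called by edgeR and by DESeq2, with 7 at an unadjusted p under 0.05 and 4 passing by adjusted p alone. Fgr was 1 of these, again lower and just short of the fold threshold (-0.72, SE 0.19, edgeR adjusted p = 0.0087). Its genotype by time difference did not pass (0.43, SE 0.28, edgeR adjusted p = 0.36). Over all genes 2.01% were called at 3 h and 1.38% at 24 h, and 13.9% passed by adjusted p alone at 24 h. For genotype by time Src (0.40, SE 0.09) and Vav1 (0.27, SE 0.08) were called higher, and Ptpn6 (-0.32, SE 0.07) and the phospholipase Plcg2 (-0.35, SE 0.09) lower, with edgeR adjusted p from 0.0025 to 0.026. These were 4 of the 14 tested, where 9.53% of all genes were called.

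The phagosome oxidase and the Vps34 complex, with which Slamf1 is known to work, were measured by 11 genes, all tested. With time 3 were called higher and 0 lower in each genotype, where 20.9% of all genes were called higher in control and 21.9% in AclyM-KO cells. By adjusted p alone 8 were higher and 2 lower in control, and 9 higher and 1 lower in AclyM-KO cells, where 74.9% and 75.7% of all genes passed. Uvrag, a subunit of the Vps34 complex, rose by 1.91 on the log2 scale in control (SE 0.07) and 1.77 in AclyM-KO cells (SE 0.07), and Atg14, a subunit of the other Vps34 complex, by 0.77 (SE 0.11) and 1.07 (SE 0.12). The third call was the oxidase subunit Ncf4 in control cells (0.86, SE 0.05) and the GTPase Rac2 in AclyM-KO cells (0.80, SE 0.06). Each also rose by adjusted p in the other genotype and missed the fold threshold there, Ncf4 with 0.62 in AclyM-KO (SE 0.05, edgeR adjusted p = 1.3e-11) and Rac2 with 0.73 in control cells (SE 0.06, edgeR adjusted p = 3.8e-13). No gene of the list was called between genotypes at either time by edgeR or DESeq2, with 6 at an unadjusted p under 0.05 at 3 h and 3 at 24 h (3 and 2 by adjusted p alone), and Ncf4 was called lower for genotype by time (-0.24, SE 0.08, edgeR adjusted p = 0.042). Between genotypes 2.01% of all genes were called at 3 h and 1.38% at 24 h, and 15.4% and 13.9% passed by adjusted p alone. For genotype by time 9.53% of all genes were called.

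A list of 6 genes of engulfment was set beside Slamf7, the inhibitory receptor Sirpa among them. Itgam, the alpha chain of Mac-1, fell with time, with a log2 fold change of -0.82 in control (SE 0.08) and -0.99 in AclyM-KO cells (SE 0.08). The signalling chain Tyrobp was called in AclyM-KO cells (-0.99, SE 0.05) and lay just short of the fold threshold in control cells (-0.745, SE 0.05, edgeR adjusted p = 3.4e-15). With time 1 of the 6 was called in control and 2 in AclyM-KO cells, where 40.4% and 41.9% of all genes were. None of the 6 was called between genotypes at either time by edgeR or DESeq2, with 3 at an unadjusted p under 0.05 at each time (2 and 1 by adjusted p alone). Over all genes 2.01% were called between genotypes at 3 h and 1.38% at 24 h, and 15.4% and 13.9% passed by adjusted p alone. For genotype by time 3 were called, all lower: Itgb2, the beta chain of Mac-1 (-0.25, SE 0.07), Tyrobp (-0.24, SE 0.07) and the inhibitory receptor Sirpa (-0.24, SE 0.06), with edgeR adjusted p from 0.0075 to 0.017. For that contrast 9.53% of all genes were called. Of the 5 genes of TRAM and TRIF sorting, a step of Tlr4 signalling to which human SLAMF1 has been linked, Ticam1 rose by 0.77 in control (SE 0.09) and 1.22 in AclyM-KO cells (SE 0.09), Ticam2 by 1.04 (SE 0.10) and 0.93 (SE 0.10), and Rab11fip2 by 0.80 in control cells (SE 0.16). In AclyM-KO cells Rab11fip2 passed by adjusted p and missed the fold threshold (0.39, SE 0.16, edgeR adjusted p = 0.030). With time 3 of the 5 were called higher in control and 2 in AclyM-KO cells, where 20.9% and 21.9% of all genes were. Ticam1 was also called for genotype by time (0.45, SE 0.13, edgeR adjusted p = 0.025). Between genotypes 0 of the 5 were called by edgeR or DESeq2 at either time, where 2.01% of all genes were called at 3 h and 1.38% at 24 h. At an unadjusted p under 0.05 there were 0 at 3 h and 2 at 24 h. By adjusted p alone 1 passed at 24 h, where 13.9% of all genes did. It was Ticam1, higher in AclyM-KO cells and short of the fold threshold (0.62, SE 0.08, edgeR adjusted p = 6.5e-06).

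The genes whose log2 CPM followed Slamf1 most closely over the 12 libraries were Usp35 (r = 0.994), Zfp597 (r = 0.984), Clip2 (r = 0.983), Msi2 (r = 0.981) and Usp15 (r = 0.981), out of 11903 other genes tested. Usp35 had group means of 7.99 CPM in control and 6.07 in AclyM-KO cells at 3 h, and 13.5 and 19.3 at 24 h. The genes at the other end were Prelid1 (r = -0.990), Tecr (r = -0.985), Insig1 (r = -0.984), Cenpi (r = -0.982) and Lacc1 (r = -0.981). Insig1, a sterol-regulated protein of the endoplasmic reticulum, had group means of 71.2 and 122 CPM at 3 h and 46.4 and 28.7 at 24 h, in control and AclyM-KO cells. The 12 libraries fall into 4 groups, so these values describe a pattern of 4 levels and carry no test. Of the other members, Ly9 was the nearest to Slamf1 (r = 0.933), followed by Slamf8 (0.891), Slamf7 (0.888) and Slamf9 (0.873), with Cd84 at 0.541 and Cd48 at -0.869. The closest pair among the 7 was Slamf8 and Slamf9 (r = 0.993), the short-tailed members, and the most opposed was Slamf9 and Cd48 (r = -0.981).

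Cd84 had 3 rows in the table, of which 2 were identical and 1, NM_001252472, followed another transcript, of 2 exons. It shared 457 of its 3434 exonic bases with the longer transcript of the identical rows, which has 3291. Its counts were 18.2 ± 0.654% of those of an identical row in control cells at 3 h, 15.7 ± 0.357% in AclyM-KO cells at 3 h, 18.7 ± 0.920% in control cells at 24 h and 18.4 ± 0.561% in AclyM-KO cells at 24 h (SD, n = 3). The 3 AclyM-KO libraries at 3 h, at 15.4 to 16.1%, lay below the other 9, at 17.7 to 19.5%. This ratio was looked at after the values were seen and was not tested.

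Marker genes of other cells were low and some moved with the groups. The T cell list summed to 32.7 to 34.5 CPM in control and 23.6 to 24.3 CPM in AclyM-KO cells at 3 h, and to 9.68 to 10.7 and 6.06 to 6.88 CPM at 24 h, nearly all of it from Cd4 and Lck. The neutrophil list summed to 11.9 to 15.3 CPM at 3 h and 3.44 to 4.70 CPM at 24 h, with Ly6g at 0 in every library, and the mast cell and basophil list to 2.38 to 3.09 CPM in control and 4.25 to 5.90 CPM in AclyM-KO cells at 3 h, and to at most 1.39 CPM at 24 h. The B cell list reached at most 1.14 CPM, the NK cell list 0.154, the dendritic cell list 2.69, the platelet and megakaryocyte list 0.625 and the fibroblast list 1.28. The 10 macrophage markers summed to 4663 to 4931 CPM at 3 h and 3619 to 3881 CPM at 24 h. The part of these changes in the members' values was not tested, and the T cell, neutrophil, dendritic cell and mast cell lists were lower at 24 h than at 3 h in both genotypes. The fibroblast list was higher at 24 h, at 0 to 0.348 CPM at 3 h and 0.656 to 1.11 CPM at 24 h in control cells and 0.0962 to 0.656 and 0.724 to 1.28 CPM in AclyM-KO cells. Its gene Dcn was called higher with time in both genotypes (log2 fold change 3.73, SE 0.62, edgeR adjusted p = 3.0e-06 in control and 2.81, SE 0.61, edgeR adjusted p = 0.00014 in AclyM-KO cells), as were Slamf9, Slamf8, Ly9 and Slamf6. Dcn was near the detection limit, with 0 counts in 3 of the 12 libraries and at most 1.11 CPM. The other genes of the fibroblast list were not tested.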

How the data were processed

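RNA of BMDMs was sequenced from strand-specific libraries. The authors aligned reads to mm10 with STAR 2.5.2b (CASAVA 1.8.2 is also named in the submitters' processing notes) and tallied the tags of each RefSeq transcript, without normalization, in HOMER; its strand and isoform settings were not given in the sources used here. The deposited values are whole-number counts for 35745 transcripts in 13 libraries. Of these, 35628 were matched to a symbol through RefSeq and GENCODE tables, and the 117 others held 1.13% of counts. edgeR 4.0.16 in R 4.3.3 (TMM scaling, filterByExpr, robust quasi-likelihood test) was fitted to 12 libraries in 4 groups, without control 24 h replicate 1, and p-values were adjusted by Benjamini-Hochberg over 19621 transcripts. A gene was called at an adjusted p under 0.05 and a log2 fold change beyond 0.75, and for genotype by time at an adjusted p under 0.05 alone. 95% intervals used 8 residual degrees of freedom. CPM used TMM library sizes and was divided by the exon length of the longest matched GENCODE transcript among rows of a gene whose totals lay within 0.1%. DESeq2 1.42.0 and other settings were alternatives. The fit was tested on simulated data. Replicates of a group differed by more than counting noise (chi-square per degree of freedom 2.39 to 11.0).

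The members, lists and settings were chosen with earlier results of these data known. Named genes were the 7 members, Slamf6, Cd244a, Cd2 and Acly, up to 4 called genes with the largest change per list and comparison, and the 5 genes most and least like Slamf1 by correlation. In the shallow library 1 count is 22.4 CPM and 398 symbols reached 10 counts, against 11157 to 12388 in the other libraries.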

Additional observations from a re-analysis of the deposited data

Results flagged for a closer look

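In control cells at 24 h, replicate 1 lay apart from the other 3 libraries of its group for 5 of the 7 members when all 13 libraries were scaled together: it had 695 CPM of Slamf7, 0 of Slamf9, 112 of Cd48, 89.6 of Cd84 and 246 of Ly9. These values rest on 31, 0, 5, 4 and 11 counts in a library of 34467. Such a test flags about 5% of groups by chance. The part of counting error in them was not tested.

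Ly9 differed between the times in its genotype effect, by 0.236 on the log2 scale in edgeR's genotype by time contrast. Slamf1 moved in opposite directions with genotype at 3 h and at 24 h in every library, a difference of effects of 1.70 on the log2 scale, which was not tested because Slamf1 was chosen for it.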

How the results depend on the processing

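The number of the 6 members called was 0 between genotypes at 3 h and 24 h, 3 with time in each genotype and 1 for genotype by time. By adjusted p alone it was 1 at 3 h, 1 at 24 h, 6 with time in control and 6 in AclyM-KO cells. With a log2 fold threshold of 1 it was 1 with time in control cells, where Slamf8 (0.98) and Ly9 (0.93) lay just under that threshold. In AclyM-KO cells Slamf8 (1.0006) and Ly9 (1.16) lay above it. The share of all genes at a threshold of 1 was not counted. For genotype by time the number called was 0 with all 13 libraries, 0 with no filter on low counts and 0 with a fold threshold of 0.75. Leaving out 1 library at a time gave 0 to 0 between genotypes at each time, 3 to 3 with time and 0 to 1 for genotype by time, where the Ly9 value lay between 0.17 and 0.27; the call was lost without any of the 3 control 3 h libraries, AclyM-KO 3 h replicate 2, control 24 h replicate 2, or AclyM-KO 24 h replicates 2 or 3. The adjusted p of Ly9 at 3 h stayed between 4.8e-06 and 0.0056, and that of Slamf7 at 24 h between 4.9e-05 and 0.026, over 19 settings each.

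Values near 0 changed sign. For Slamf9 between genotypes at 24 h it was -0.00027 with DESeq2, -0.025 with no filter, -0.012 with only the groups compared and -0.0013 with 1 transcript per gene, and for Slamf8 in genotype by time -0.00031 with no filter. Without 1 library the range was -0.049 to 0.043 for Slamf9 at 24 h, -0.081 to 0.34 for Slamf9 at 3 h, -0.11 to 0.00043 for Cd84 at 3 h, -0.036 to 0.057 for Slamf8 and -0.35 to 0.069 for Slamf9 in genotype by time. With the replicate number as a block the Cd84 value for genotype by time was 0.0024, no count of called members changed, and calls over all genes went from 1134 to 838 for genotype by time. Same-numbered libraries of different groups did not deviate together (r = -0.0065 to 0.058), so the numbers were not read as pairs. The cause of these changes was not tested. With 3 libraries per group, small differences stay within the intervals given with each value.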
